A study of Mus musculus with 3 samples.

Results

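The genes Mki67, Mgmt and Ebf3 lie next to each other on mouse chromosome 7, and the interval around them was searched for sites of 2 transcription factors of the embryonic hindlimb, Tbx4 and Hoxc10. The interval was defined as the 3 genes and the gaps between each of them and the next protein-coding gene on either side, at most 1 Mb from the gene. It ran from 135686295 to 137375568 of the mm10 build (1689.3 kb), from the upper end of Ptpre to the lower end of 9430038I01Rik. It held 23 of the 4780 deposited Tbx4 sites and 14 of the 1614 deposited Hoxc10 sites, or 0.481% and 0.867% of the lists. The 3 genes were chosen by their number of sites in these same lists, so the counts below describe the region, with no test.

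Both profiles came from chromatin immunoprecipitation with sequencing (ChIP-seq) of hindlimb tissue of stage e11.5, taken from wild-type CD1 mice and fixed with 1% formaldehyde. Tbx4 was pulled down with a homemade antibody (1695a) and Hoxc10 with the Abcam antibody ab153904. Another sample, Hoxc10 with a Santa Cruz antibody, was not analysed here. The list names carry unexplained abbreviations, and the Hoxc10 list used here may be limited to sites that this other antibody also gave. Each factor is represented by 1 list of peak summits, so there are no replicates and no error between embryos can be given. The labels do not say whether embryos were pooled, and they name no sorting of cells, so the cell types that carried the binding were not told apart. Read depth is unknown. The score of a site is the authors' MACS2 value on a −log10 scale, used here to rank sites within 1 list and never between lists.

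The T-box factor Tbx4 supports the outgrowth of the hindlimb bud, and the homeodomain factor Hoxc10 belongs to the posterior Hox groups, which pattern the hind part of the body. Mki67 encodes Ki-67, a nuclear protein of cycling cells that coats chromosomes in mitosis. Mgmt encodes a methyltransferase that repairs DNA by taking alkyl groups off guanine. Ebf3 encodes a transcription factor of the early B-cell factor (Ebf) family, known for roles in the differentiation of neurons and mesodermal tissues. Long stretches without protein-coding genes often hold enhancers that act over a distance on developmental genes. Which gene a site acts on cannot be read from its position.

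Most of the sites lay between Mki67 and Mgmt. This gap of 1178 kb held 20 of the 23 Tbx4 sites and 11 of the 14 Hoxc10 sites. The body of Mki67 (26.7 kb) and the 3.5 kb between it and Ptpre held no site of either factor. The body of Mgmt (233.7 kb) held 1 Tbx4 and 1 Hoxc10 site, and the 65.5 kb between Mgmt and Ebf3 held 1 Tbx4 site and no Hoxc10 site. The body of Ebf3 (129.1 kb) held 1 Tbx4 and 2 Hoxc10 sites, and the 52.8 kb above Ebf3 held none. Sites of both factors thus lay inside Mgmt and Ebf3 but not inside Mki67, the shortest of the 3 genes. The sites inside Mgmt were low in their lists, with 77.8% of the Tbx4 and 99.4% of the Hoxc10 list at or above them.

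**Figure D1:**
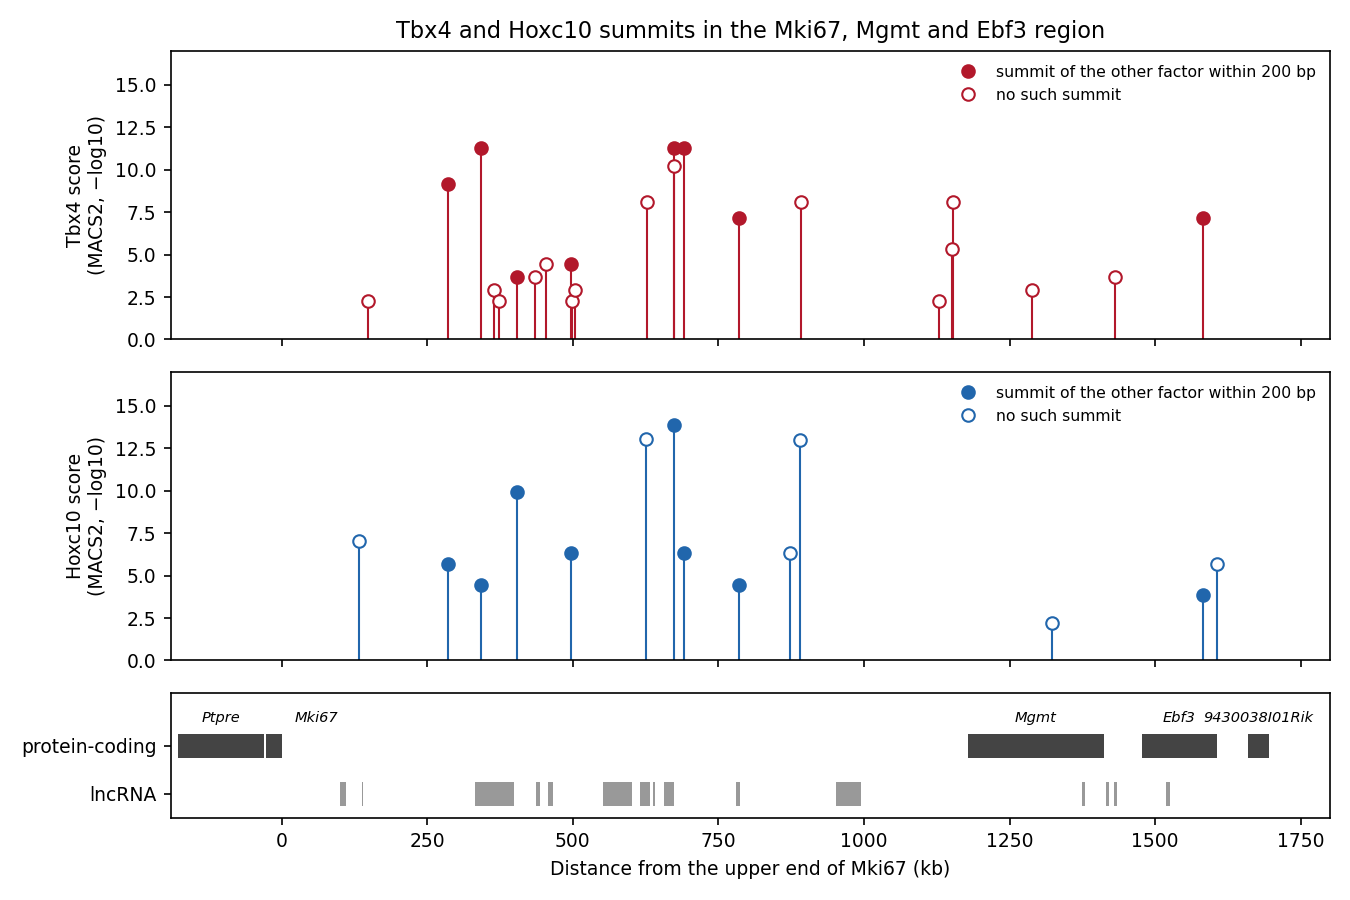
Score of each Tbx4 summit (top) and each Hoxc10 summit (middle) against its distance from the upper end of Mki67 in kb, with protein-coding and lncRNA genes below; filled circles have a summit of the other factor within 200 bp. Most of the 23 Tbx4 and 14 Hoxc10 summits stand in the gap of 1178 kb between Mki67 and Mgmt, and the filled circles there lie between 286 and 786 kb from Mki67.

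In 8 places a Tbx4 and a Hoxc10 summit lay within 200 bp of each other, 7 of them between Mki67 and Mgmt and 1 inside Ebf3. These co-bound pairs made up 34.8% of the region's Tbx4 sites, where 10.9% of the whole Tbx4 list was co-bound. They made up 57.1% of the region's Hoxc10 sites, where the share of the whole Hoxc10 list was 32.1%. The number of pairs is part of what the region was chosen for, so nothing is read from these shares. The region's paired summits were 6 to 97 bp apart, with a median of 53.5 bp, and the median over all 518 pairs was 63.5 bp. Hoxc10 lay at the higher coordinate in 4 of the 8 pairs and at the lower one in the other 4.

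The sequence in the files' build could be shown next to 1 of these pairs, which also holds the highest scores of both factors. Its Tbx4 summit at 136390258 scored 11.3 and its Hoxc10 summit at 136390233, 25 bp away, scored 13.86. Both lay inside the long noncoding RNA (lncRNA) gene Gm29872, which is transcribed from the minus strand, at 157 and 182 bases downstream of its annotated start. Of all promoter windows in the RefSeq table (GRCm38.p6), that of Gm29872 was the only one whose start lay within 500 bp of a summit of the region. The window at chr7:136390366-136390665 is given 5′ to 3′ on the minus strand, with capitals for the 50 bases from the annotated start, the end that faces the pair. The Tbx4 summit lay 108 bp beyond that end, so the bases under the summits are not included.
Gm29872: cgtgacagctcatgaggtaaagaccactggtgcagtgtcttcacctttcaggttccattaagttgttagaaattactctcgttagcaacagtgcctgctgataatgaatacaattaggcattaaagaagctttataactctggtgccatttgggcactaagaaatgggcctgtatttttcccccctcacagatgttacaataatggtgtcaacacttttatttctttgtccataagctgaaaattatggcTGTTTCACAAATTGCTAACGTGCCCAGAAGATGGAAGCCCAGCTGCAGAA
The window was searched on both strands for the T-box core GTGTGA and the posterior Hox motif TTTATGG, and held neither, so that no matches overlapped. Of all 32851 promoter windows of the table, 14.5% held the first and 2.75% the second, so a window with neither is the usual outcome. The promoter windows of the members held 1 T-box core match, in the Mgmt window that begins at 136894336, and no posterior Hox motif.

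In the other 6 pairs between Mki67 and Mgmt, except the one at 404.6 kb, Tbx4 stood higher in its list than Hoxc10 in its own. At 286 kb from Mki67 the Tbx4 summit at 136002449 scored 9.15 and the Hoxc10 summit at 136002546 scored 5.69. At 342.6 kb, inside the lncRNA gene Gm51502, the Tbx4 summit at 136059050 scored 11.3 and the Hoxc10 summit at 136059035 scored 4.43. These were sites high in the Tbx4 list, with 18.4% and 13.3% of its sites at or above them, and low in the Hoxc10 list, with 70.1% and 83.1% at or above them. At 404.6 kb the order was reversed: the Tbx4 summit at 136121054 scored 3.67, a score that 61.3% of the list reached, and the Hoxc10 summit at 136121128 scored 9.91, which 38.8% reached. The lists differ in length (4780 Tbx4 and 1614 Hoxc10 sites), and how their sites were selected is not known. Places within each list therefore do not tell which factor bound a pair more strongly.

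The closest pair stood at 497.5 kb, with a Tbx4 summit of 4.46 at 136213973 and a Hoxc10 summit of 6.34 at 136213979. At 690.1 kb a Tbx4 summit of 11.3 at 136406528 was 56 bp from a Hoxc10 summit of 6.34 at 136406472, and this pair lay 16.1 kb upstream of the start of Gm29872. The last pair of the gap, at 786 kb inside the lncRNA gene Gm29931, joined a Tbx4 summit of 7.14 at 136502460 with a Hoxc10 summit of 4.43 at 136502513. In 8 of the 8 pairs of the region the Tbx4 score reached the median of its list (3.67), and in 2 of 8 the Hoxc10 score reached its list median (7.72). Among the co-bound sites in the rest of the lists, 80.2% of the Tbx4 and 61.8% of the Hoxc10 sites did so.

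All 8 pairs of the region lay within 100 bp, as did 372 of the 518 pairs of the whole list. The widest pair of the region was 97 bp apart, and the next-nearest summits of both factors were 669 bp apart. Another 4 Tbx4 sites had a Hoxc10 summit over 200 and up to 1000 bp away, 17.4% of the region's Tbx4 sites, where the whole list had 2.49%. For Hoxc10 the count was 2 sites, 14.3%, where the whole list had 6.75%. The region was chosen for its number of sites and pairs, so nothing is read from these shares either. At 626.5 kb, inside the lncRNA gene C230079O03Rik, a Tbx4 summit of 8.12 at 136342980 was 837 bp from a Hoxc10 summit of 13.04 at 136342143. At 891.1 kb a Tbx4 summit of 8.12 at 136607581 was 809 bp from a Hoxc10 summit of 12.99 at 136606772. The Hoxc10 scores next below the highest of the region thus belonged to sites near Tbx4 summits but outside the pairing distance. The other 2 of the 4 Tbx4 sites, at 136389449 (score 10.21) and 136214648 (score 2.26), lay beside pairs already described.

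**Figure D2:**
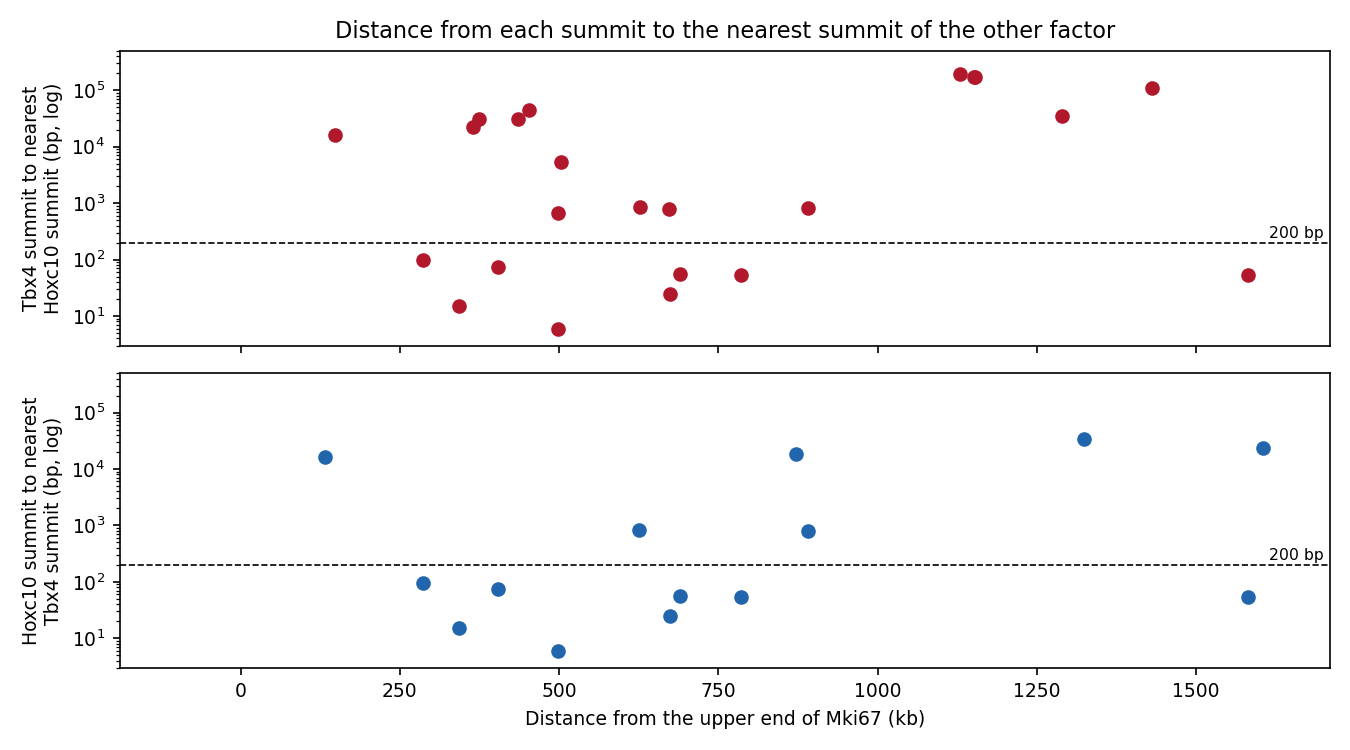
Distance in bp (log axis) from each Tbx4 summit to the nearest Hoxc10 summit (top) and from each Hoxc10 summit to the nearest Tbx4 summit (bottom), by position in kb from the upper end of Mki67. The 8 pairs below the dashed line at 200 bp are 6 to 97 bp apart, and no summit of the region falls between 97 and 669 bp.

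Seen from the genes, the starts of Mki67 and Mgmt both face the gap, and the site nearest to either start was 25.1 kb away. Mki67 is transcribed from the minus strand and starts at its upper end, where the RefSeq promoter table places its start at 135716379. The Tbx4 site nearest to that start scored 2.26 and lay 148.1 kb away at 135864499, and the nearest Hoxc10 site scored 7.02 and lay 132 kb away at 135848356. Mgmt is transcribed from the plus strand, with table starts at 136894586 and 136913098. The nearest Tbx4 site to the first of these scored 8.12 and lay 25.1 kb upstream at 136869535, and the nearest Hoxc10 site scored 2.2 and lay 145.3 kb downstream, inside the gene, at 137039908. The last 178 kb of the gap before Mgmt held 3 Tbx4 sites, with scores of 2.26, 5.3 and 8.12, and no Hoxc10 site. The Tbx4 site inside Mgmt scored 2.94 at 137005292, and the nearest Tbx4 site to the upper end of Mgmt scored 3.67 and lay 19.1 kb beyond it at 137147305, inside the lncRNA gene Gm30061.

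Ebf3 was the one of the 3 genes with a co-bound pair inside it. Its table start is at 137314445 on the minus strand, and the pair lay 16.1 kb downstream of that start. The Tbx4 summit at 137298366 scored 7.14, which 25.8% of the Tbx4 list reached, and the Hoxc10 summit at 137298312 scored 3.83, which 89.5% of the Hoxc10 list reached. A second Hoxc10 site, at 137322095 with a score of 5.69, lay 7.7 kb upstream of the table start and still 710 bp inside the gene entry, which extends to 137322805. The nearest site to the lower end of Ebf3 was the Tbx4 site in the gap below it, 46.4 kb away. Exons and introns were not told apart, since the gene table gives starts and ends of genes without their transcripts' structure.

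Within the gap the sites were not spread evenly. Counted in steps of 200 kb from Mki67, the gap held 1, 4, 6, 5 and 1 Tbx4 sites and 3 in the last 178 kb. The Hoxc10 counts were 1, 2, 2, 4, 2 and 0. All 7 pairs of the gap fell in the steps between 200 and 800 kb. The longest stretch without any site, 237.9 kb, ran from 136607581 to 136845443, and the next, 162.1 kb, spanned the lower edge of the region and all of Mki67. When neighbouring summits of either factor up to 5 kb apart were joined, the 37 summits formed 11 groups and 12 single sites. Of the 11 groups 10 held both factors, which follows from the definition wherever a group contains a co-bound pair. The largest, at 497.5 kb from Mki67, held 3 Tbx4 sites and 1 Hoxc10 site over 5391 bp.

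The gap is not free of transcription units. The gene table lists 16 lncRNA genes and 4 pseudogenes in the region, 12 of the lncRNA genes within the gap, where they cover 234 kb or 19.9% of its length. In these lncRNA genes lay 7 of the 20 Tbx4 sites and 4 of the 11 Hoxc10 sites of the gap, in 4 of the 12 genes. The same share over other gaps was not counted, so no leaning towards lncRNA genes is read from these numbers. Gm51502 (67.9 kb) held 3 Tbx4 sites and 1 Hoxc10 site, Gm29872 (16.8 kb) held 2 and 1, and C230079O03Rik (17.2 kb) and Gm29931 (7.3 kb) held 1 and 1 each. C030029H02Rik, 50.2 kb long, held none. The sources used here give no function for these lncRNA genes.

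The region was chosen for its number of sites. Their median score was above that of the rest of the list for Tbx4 and below it for Hoxc10. Its Tbx4 scores were 2.26 at the lowest, 4.46 at the median and 11.3 at the highest, against a median of 3.67 and a highest score of 317.1 in the rest of the list. Its best Tbx4 sites ranked 543rd in the list, so 0 of 23 were among its top 478 sites, while 8 of 23 scored at least 8.12, as did 21.8% of the list. Its Hoxc10 scores were 2.2 at the lowest, 6.34 at the median and 13.86 at the highest, against a median of 7.72 and a highest score of 237.9 in the rest. Its best Hoxc10 site ranked 337th, so 0 of 14 were among the top 322, which with ties held 20.7% of the list. The like limit for Tbx4 is the score of 8.12, reached by 34.8% of the region's Tbx4 sites. The top 478 of the 4780 Tbx4 sites are a smaller share. Of the region's Hoxc10 sites 28.6% reached the list median, where 53.5% of the whole list did, and for Tbx4 the shares were 69.6% and 61.3%. Scores come in steps with many ties, and the 23 Tbx4 sites share 10 distinct values.

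**Figure D3:**
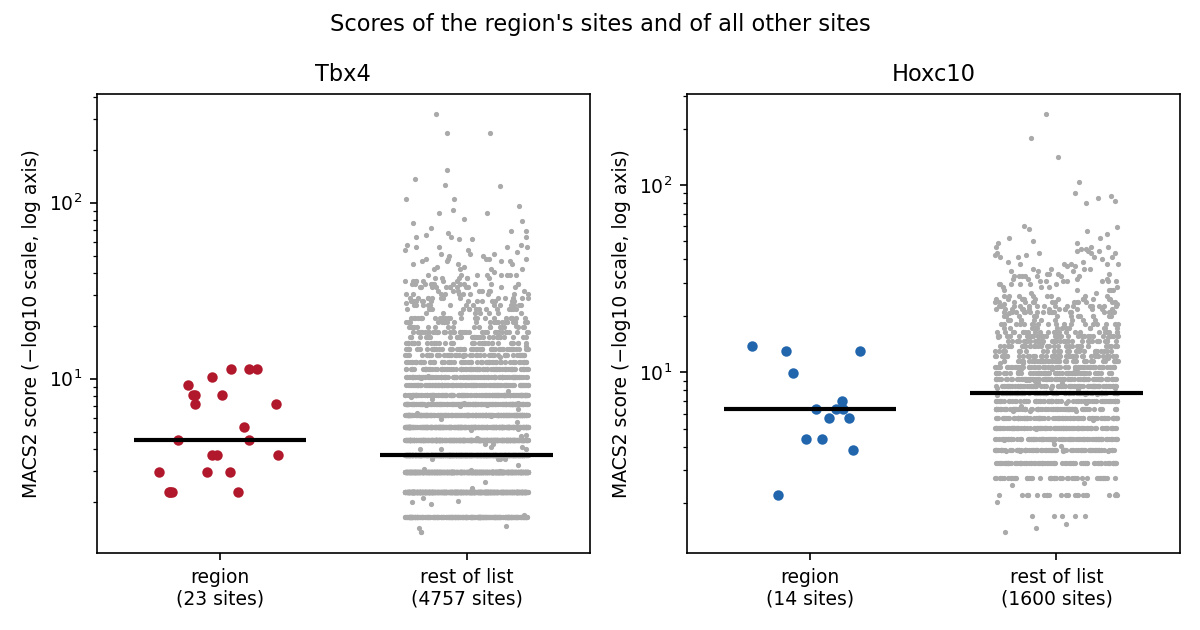
MACS2 scores (log axis) of the sites in the region, on the left, and of all other sites, on the right, for Tbx4 and Hoxc10; each point is 1 site and the black line is the median. The 23 Tbx4 sites reach 11.3 and the 14 Hoxc10 sites reach 13.86, while the rest of the lists reach 317.1 and 237.9.

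Paired and unpaired Tbx4 sites of the region had different median scores. The 8 co-bound Tbx4 sites of the region had a median score of 8.14 (lowest 3.67, highest 11.3), and the 15 others had a median of 3.67 (lowest 2.26, highest 10.21). In the rest of the list the medians were 7.14 and 3.67. For Hoxc10 the order in the region was the other way round, with a median of 6.02 at the 8 co-bound sites and 6.68 at the 6 others, where the rest of the list had 9.16 and 7.71. With 8 and 6 sites whose ranges overlap (3.83 to 13.86 and 2.2 to 13.04), this difference of medians is a description and was not tested.

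Among gaps of at least 100 kb between neighbouring protein-coding genes, that from Mki67 to Mgmt held the most Tbx4 sites. Of these 2967 gaps, 878 or 29.6% held a Tbx4 site and 480 or 16.2% held a Hoxc10 site. The 20 Tbx4 sites ranked first. The 11 Hoxc10 sites ranked second together with the gap from Zfp608 to Gramd3, after 18 sites in the gap from Thap1 to Zfp703. Per length the gap stood lower, with 1.7 Tbx4 sites per 100 kb (44th of the 2967) and 0.934 Hoxc10 sites per 100 kb (38th), where all these gaps together had 0.145 and 0.0633. It was the 239th longest gap. Of the 296 gaps of at least 1 Mb, with 0.0918 Tbx4 and 0.0434 Hoxc10 sites per 100 kb in all, no other held as many Tbx4 sites.

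The gaps most like it, by the Euclidean distance over the numbers of Tbx4, Hoxc10 and co-bound Hoxc10 sites, were those from Zfp608 to Gramd3 (17, 11 and 6 sites, distance 3.16), from Thap1 to Zfp703 (17, 18 and 9 sites, distance 7.87) and from Slc4a3 to Epha4 (14, 5 and 2 sites, distance 9.85). The gap from Mki67 to Mgmt itself had 20, 11 and 7. Its highest Tbx4 score of 11.3 was below that of these gaps (14.74, 15.93 and 15.93). Its highest Hoxc10 score of 13.86 was above those of Zfp608 to Gramd3 (12.24) and Slc4a3 to Epha4 (11.45), and far below the 85.52 of Thap1 to Zfp703. Other gaps with many sites were those from Veph1 to Shox2 (9 and 10 sites) and from Csnk1g3 to Zfp608 (11 and 7 sites).

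**Figure D4:**
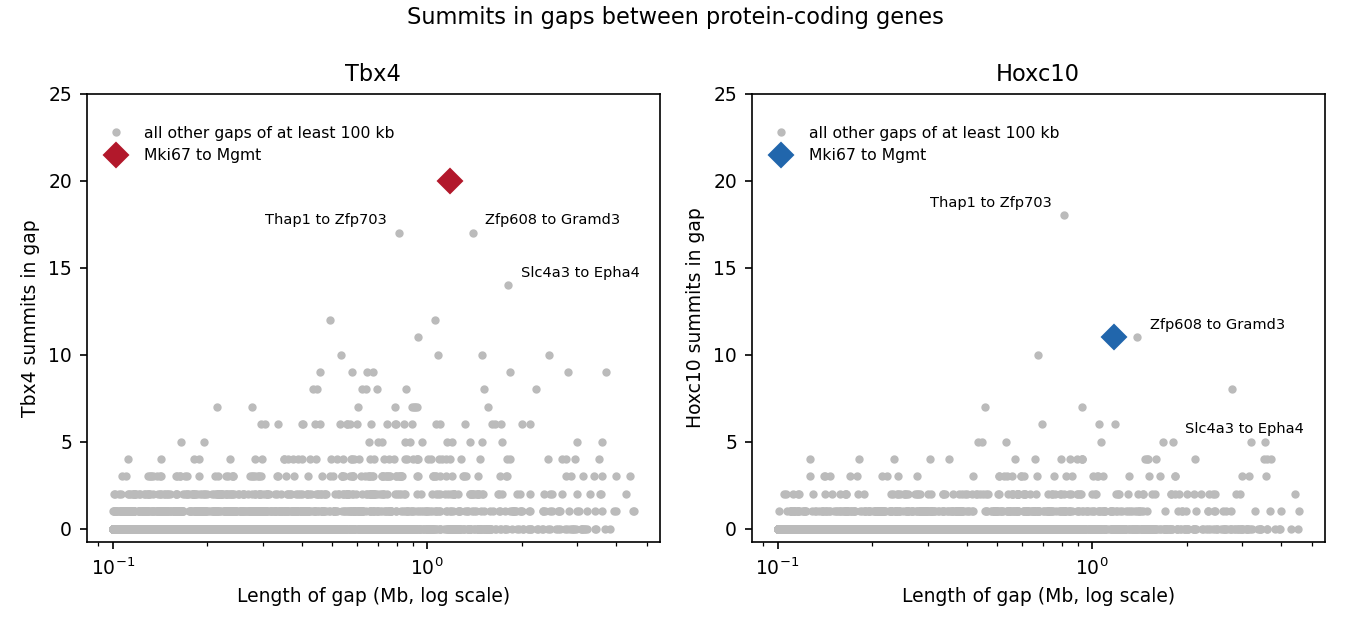
Number of Tbx4 summits (left) and Hoxc10 summits (right) in each of 2967 gaps of at least 100 kb between protein-coding genes, against the length of the gap in Mb on a log axis; the diamond is the gap from Mki67 to Mgmt. With 20 Tbx4 summits it stands above the other gaps shown, and with 11 Hoxc10 summits it stands level with Zfp608 to Gramd3 and below the 18 of Thap1 to Zfp703.

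The running numbers in the peak names give a view of the region before the authors selected the deposited sites. MACS2 numbers peaks along each chromosome, and the numbers rose with position on every chromosome of both lists. From the first to the last deposited Tbx4 site of the region the numbers ran over 32 peaks, and 23 of them (71.9%) were deposited. Over chromosome 7 the share was 11% of 2540 numbers, and over the whole list 10.6% of 45103. Counted instead between the deposited sites that flank the region on either side, whose span is wider than the region, it was 35.9% of 64 numbers.

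For Hoxc10 the share in the region was 70%, or 14 of 20 numbers, over chromosome 7 it was 34.2%, and over the list it was 40.1% of 4026. The flanking Hoxc10 sites bore the numbers just below and just above, so these 20 numbers are all that lie between them. The deposited share was higher in the region than in the whole list for both factors. The region was chosen for its deposited sites, so a high share is part of that choice. The steps by which numbered peaks were selected (not given in the sources used here) and their part in the region's count of sites were not tested.

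**Figure D5:**
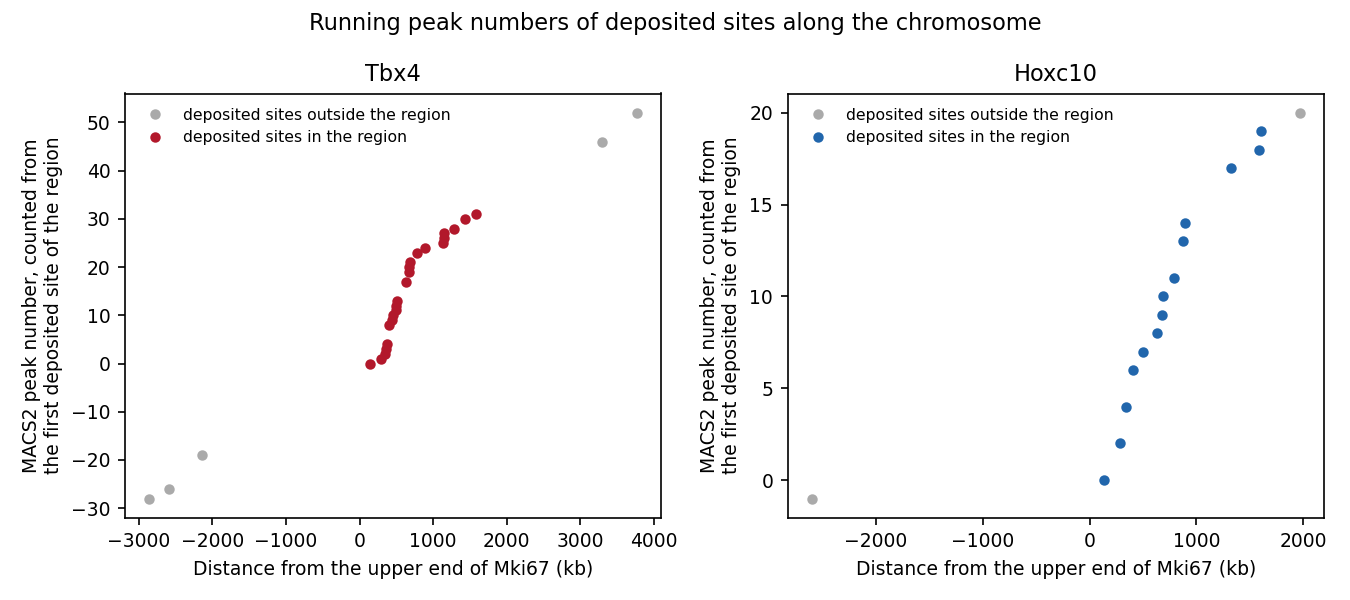
MACS2 peak number of each deposited site, counted from the region's first deposited site, against its distance from the upper end of Mki67 in kb, for Tbx4 (left) and Hoxc10 (right); coloured points lie in the region and grey points outside it. From the first to the last deposited site of the region, 23 of 32 Tbx4 numbers and 14 of 20 Hoxc10 numbers are deposited. Between the deposited sites that flank the region, the Tbx4 share is 35.9% of 64 numbers.

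Genes of the same families and functions as the 3 members were counted in the same way. A gene counted as bound when a site lay in it or in the gap to the next protein-coding gene, at most 1 Mb away. Of all 21887 protein-coding genes, 17.2% had a Tbx4 site, 6.83% a Hoxc10 site and 2.65% a co-bound Hoxc10 site by this count. By it Mki67 had 17 Tbx4 and 11 Hoxc10 sites and Mgmt 21 and 11, most of them the same sites of their common gap, while Ebf3 had 2 and 2. The long gap lies between Mki67 and Mgmt, and Ebf3 stands beyond Mgmt, so none of the sites of that gap are given to Ebf3.

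The first list held the other Ebf genes and genes of proteins that work with Ebf factors. Like the lists after it, it was chosen with earlier results of these data known, so nothing is read from its shares. The lengths searched also differ and are given below. Of its 8 genes besides Ebf3, 6 had Tbx4 sites (75%, against 17.2% of all genes), 5 had Hoxc10 sites (62.5%, against 6.83%) and 4 had a co-bound site (50%, against 2.65%). Ebf2, a paralogue of Ebf3, had 7 Tbx4 and 4 Hoxc10 sites, 3 of them co-bound, with best scores of 28.89 and 20.86. Ebf1, needed for B-cell development, had 8 Tbx4 sites (best score 18.38) and 0 Hoxc10 sites. Zfp521, a zinc finger protein that binds Ebf1, had 11 and 2 with best scores of 71.85 and 13.04, and Tcf4, an E protein, had 14 and 4 with best scores of 9.15 and 12.24. The 2 genes of the list without a site of either factor were Ebf4 and Tcf3, which are named here after their values were seen. Ebf2 with its neighbouring gaps (600.7 kb) thus held more sites of both factors than Ebf3 with its own (247.4 kb), and Ebf1 (1286.4 kb) differed from both by its lack of Hoxc10 sites.

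Of 19 proliferation genes other than Mki67, 1 had a Tbx4 site (5.26%, against 17.2% of all genes), 3 had a Hoxc10 site (15.8%, against 6.83%) and 0 had a co-bound site (against 2.65%), and 16 had neither factor. Ccnd2, a cyclin of the entry into the cell cycle, had 2 Tbx4 sites and 1 Hoxc10 site. Ccnd1, a related cyclin, had 1 Hoxc10 site with a score of 18.15, and Cenpf, a kinetochore protein, had 1 with a score of 16.39. Of 16 genes of DNA base and mismatch repair other than Mgmt, 2 had a Tbx4 site (12.5%, against 17.2% of all genes) and 0 a Hoxc10 site (against 6.83%). Those with a Tbx4 site were Parp1, a sensor of DNA breaks (1 site, score 4.46), and Msh6, a mismatch repair protein (1 site, score 1.63).

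The lists differ in the length that was searched. With its gaps, a gene of the first list spanned 88.1 to 1601.9 kb, where the proliferation genes other than Mki67 spanned 4.3 to 337.3 kb and the repair genes other than Mgmt 2.3 to 192.9 kb. Mki67 spanned 1030.2 kb and Mgmt 1299.2 kb, and both owe most of this length to the gap between them. The part of this length in the counts was not tested.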

How the data were processed

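The authors deposited 1 list of 1 bp peak summits per factor, each with a score on a −log10 scale as MACS2 writes it. It may stem from p-values or q-values (not given in the sources used here). Bowtie2 2.2.6, MACS2 2.1.1.20160309, HOMER and the build mm10 are named in the submitters' processing notes. No label states the control library, any pooling or how sites were selected. The list names carry unexplained abbreviations, so the Hoxc10 list may be limited to sites that the Santa Cruz antibody also gave. Positions are 1-based on mm10. Genes came from a RefSeq table of GRCm38.p6, the same build (21887 protein-coding genes on chromosomes 1 to 19, X and Y), and promoter windows of 300 bases (250 before the start) from RefSeq. Starts of genes are those of the promoter windows. A site was co-bound when a summit of the other factor lay within 200 bp. A gap is the stretch between neighbouring protein-coding genes that do not overlap, and gaps of at least 100 kb were compared.

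All results are descriptions, since there is 1 sample per factor and the region was chosen on its sites. The members and the gene lists were chosen with earlier results of these data known. Named are the 3 members and the genes that bound the region, the genes at the 5 gaps with the most sites and the 3 most alike, and up to 4 genes of each list with a site. Ebf4 and Tcf3, with no site, were added after their values were seen. Of single sites, the pairs, the 5 highest of each factor and those nearest to the ends of the members are named. Assignment to gaps and pairing were tested on simulated data. Python 3.11.15 with pandas 2.3.3, numpy 2.4.6 and matplotlib 3.10.9 was used. Alternatives changed the gene flanks, the limit of 1 Mb, the score, and the distances for pairs and groups.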

Additional observations from a re-analysis of the deposited data

How the results depend on the processing

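With sites scoring above the list median only, the region held 13 Tbx4 and 4 Hoxc10 sites and 1 pair, and the gap from Mki67 to Mgmt had 1.02 Tbx4 and 0.34 Hoxc10 sites per 100 kb. With the 1876 Tbx4 sites scoring at least 5.3, the number of the Hoxc10 list extended by ties, 11 Tbx4 sites and 6 pairs were left. Pairs within 50 bp numbered 3, within 100 or 500 bp 8, and within 1000 bp 10. The median Tbx4 score was 8.14 at co-bound sites only. A limit of 500 kb left 19 Tbx4 and 12 Hoxc10 sites, and genes widened by 1 kb left both counts as reported. With gene bodies only, 0 proliferation genes other than Mki67 had a Tbx4 or a Hoxc10 site and 0 repair genes other than Mgmt a Tbx4 site. With gaps of at most 100 kb, 1 repair gene had a Tbx4 site. The remaining settings changed no value by more than 1.5 times. No paired analysis was possible because each factor has 1 sample and no result comes from a test. Without read counts, depth limits are unknown.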
